A study of Mus musculus with 10 samples.

Results

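The subunits of respiratory complex III were followed through the developing back skin of the mouse, in basal and suprabasal keratinocytes, fibroblasts and macrophages. The group was defined by name and holds 10 genes of the 33243 that the deposited count tables list: Uqcrq, Uqcrb, Uqcrh, Uqcr10, Uqcr11, Uqcrc1, Uqcrc2, Uqcrfs1, Cyc1 and mt-Cytb. All 10 were listed in every library and passed the filter on low counts in every comparison tested.

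Single-cell RNA sequencing (10x Genomics, which counts transcripts at their 3' ends by unique molecular identifiers, UMIs) was done on whole dorsal skin, dissociated with collagenase and then trypsin. At E15.5 (3' v3.1 chemistry) and at E16.5 (3' v2 chemistry) there were 2 control and 2 MOF cKO libraries each, and at E17.5 (3' v3 chemistry) 1 library of each of control and QPC cKO. Embryos called MOF cKO are MOFfl/fl/K14Cre, bred to lose in Krt14-Cre cells the gene Kat8, which encodes MOF, the acetyltransferase of histone H4 lysine 16. QPC cKO embryos are QPCfl/fl/K14Cre, bred to lose Uqcrq, for which QPC is the older name. Controls are labelled only as Control, and by the study's methods they were littermates. The study's text calls the controls of both lines wildtype or heterozygous, and which of these each library was is not stated. Krt14-Cre is active in the epithelium, so fibroblasts and macrophages of a cKO embryo lie outside the deletion. By the study's account, E15.5 MOF cKO replicate 6 was a mosaic, in which part of the epidermis kept MOF. Stage and chemistry changed together, so no level is tested between stages.

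Complex III carries electrons from ubiquinol in the inner mitochondrial membrane to cytochrome c and pumps protons as it does so. Its electron path runs through the hemes of mt-Cytb, the iron-sulfur cluster of the Rieske protein Uqcrfs1 and the heme of Cyc1. Uqcrc1 and Uqcrc2 form the large core on the matrix side, and small subunits without a redox centre, Uqcrq among them, surround and stabilise the catalytic part. The 9 nuclear genes lie on different chromosomes or far apart, whereas mt-Cytb is read from the mitochondrial genome, so that the complex needs both sources of transcripts.

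In the GENCODE annotation of GRCm38, Uqcrq (ENSMUSG00000044894) is at chr11:53427922-53430831 on the minus strand, Uqcr10 at chr11:4701973-4704342 and mt-Cytb at chrM:14145-15288. Uqcrc1 is at chr9:108936633-108949623 and Uqcr11 at chr10:80402997-80406830. RefSeq promoter windows (GRCm38.p6, from 250 bases before to 50 bases after the annotated start) were at hand for 5 members, namely Uqcrh, Uqcr10, Uqcr11, Uqcrc1 and Uqcrfs1. Shown are the windows of Uqcrc1 (chr9:108936398-108936697, plus strand) and Uqcr11 (chr10:80406772-80407071, minus strand), the core and the small subunit among these with the largest difference between keratinocytes and fibroblasts below. The pair was chosen after the values were seen. Capitals mark the cores of motifs read by nuclear respiratory factor 1 (GCATGCGC or its reverse GCGCATGC) and by ETS factors (CCGGAAG or CTTCCGG).
Uqcrc1: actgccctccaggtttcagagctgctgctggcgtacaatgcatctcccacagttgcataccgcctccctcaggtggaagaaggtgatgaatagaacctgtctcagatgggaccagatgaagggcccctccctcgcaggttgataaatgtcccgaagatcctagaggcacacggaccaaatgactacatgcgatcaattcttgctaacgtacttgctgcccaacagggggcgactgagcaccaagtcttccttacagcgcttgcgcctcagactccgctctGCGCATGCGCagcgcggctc
Uqcr11: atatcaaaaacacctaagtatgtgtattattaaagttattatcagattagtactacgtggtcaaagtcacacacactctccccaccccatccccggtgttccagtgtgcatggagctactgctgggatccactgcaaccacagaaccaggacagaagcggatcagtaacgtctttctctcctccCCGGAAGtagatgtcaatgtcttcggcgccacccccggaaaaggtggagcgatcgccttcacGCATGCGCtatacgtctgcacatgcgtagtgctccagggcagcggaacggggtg
In the Uqcrc1 window the motif reads the same on both strands, so that its matches at bases 281 and 283 overlap. In the Uqcr11 window the ETS core starts at base 185 and the nuclear respiratory factor 1 core at base 247. The nuclear respiratory factor 1 core was found in these 2 of the 5 windows and in 2.71% of all 32851 windows, and the ETS core in Uqcr11 and Uqcrh and in 8.86% of all windows. A CCAAT box (CCAAT or ATTGG) lay in the Uqcrh and Uqcr10 windows and in 37.4% of all windows, the GC box (GGGCGG or CCGCCC) lay in none of the 5 and in 35.7% of all, and the Uqcrfs1 window held none of these letters. These matches are letters in a window and were not tied to any binding data.

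The libraries held 13609345 to 203392303 UMIs. Kept were cells in which the detected genes numbered between 1000 and 6000 and mitochondrially encoded UMIs stayed below 10%, 716 to 10653 a library, and classes were set by counts of marker UMIs. Basal cells had at least 10 UMIs of Krt5 and Krt14 and under 10 of Krt1 and Krt10, suprabasal cells at least 20 of Krt1 and Krt10, fibroblasts at least 30 of Col1a1 and Col3a1 with under 10 of Krt5 and Krt14, and macrophages UMIs of at least 2 of C1qa, C1qb and Csf1r. All 7 genes of each class's own marker list were detected in that class in every library. Numbers of cells differed widely, from 2470 and 2584 basal cells in the E15.5 controls to 21 and 22 in the E16.5 MOF cKO libraries, whose suprabasal classes held 9 and 13 cells. No doublet caller was run. Cells in more than 1 class numbered 6 to 49 a library, and pairs of libraries shared 0 to 36 cell barcodes. In basal cells the targeted gene Kat8 had 13.02 and 13.7 UMIs per 1000000 UMIs of the class (CPM) in E15.5 controls 2 and 3, 13.4 in MOF cKO 5 and 10.3 in MOF cKO 6. At E16.5 it had 16.4 and 14.9 in controls 1 and 2 and, from 3 and 2 UMIs, 8.31 and 4.51 in MOF cKO 1 and 2. In fibroblasts, outside the driver, it had 9.18 to 9.62 and 5.98 to 6.83 at E15.5 and 8.23 to 9.60 and 2.81 to 5.39 at E16.5, and no difference of Kat8 between genotypes was called by edgeR. In suprabasal cells, also within the driver, Kat8 had 12.2 to 14.6 in controls and 8.70 to 9.53 in MOF cKO at E15.5. At E16.5 it had 14.5 to 24.1 and, from 1 and 2 UMIs, 3.43 to 10.4. In E15.5 basal cells the edgeR log2 difference of Kat8 was -0.0028 (adjusted p = 0.997), so there these counts do not show the loss. By the study's account, staining for H4 lysine 16 acetylation was lower in epithelial cells of MOF cKO 5 and mosaic in MOF cKO 6. MOF cKO below means the libraries so labelled. Which part of Kat8 the 3' counts cover relative to the deletion was not examined.

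In control skin the large core subunit Uqcrc1 was the member that differed most between cell classes. It was 2.14-fold lower in fibroblasts than in basal keratinocytes, and the electron-carrying subunits Cyc1, Uqcrfs1 and mt-Cytb were lower in fibroblasts as well. Suprabasal cells had more Uqcr11 and Uqcrb than basal cells. They also had more Cyc1 and Uqcrc2, not called with single-lineage cells (those without markers of another class), scaled class limits or no filter on low counts, and less Uqcrh, not called without E15.5 Control 2, E15.5 Control 3 or E16.5 Control 2. Levels are CPM, and classes were tested in the 5 control libraries with edgeR's quasi-likelihood test, each library serving as its own block.

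**Figure D1:**
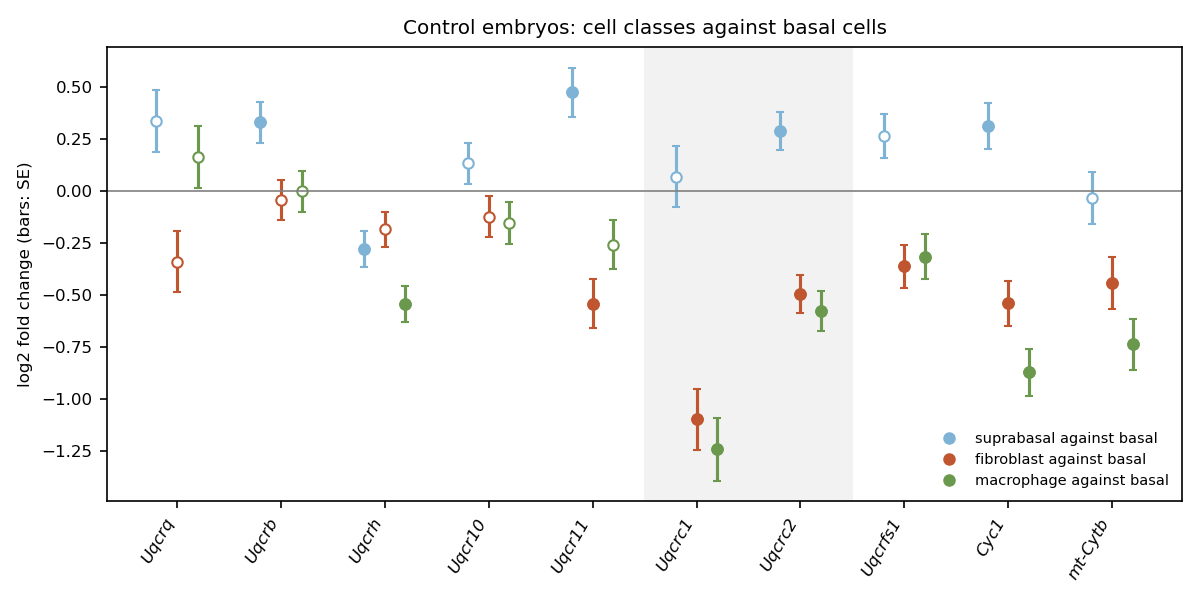
Log2 difference of each complex III subunit from basal cells in suprabasal, fibroblast and macrophage cells of the 5 control libraries, with standard errors; filled points passed an adjusted p of 0.05 and open points did not, and the grey band marks the core subunits. Uqcrc1 lies lowest, in fibroblasts at -1.10 and in macrophages at -1.24, and Uqcr11 highest, in suprabasal cells at 0.48.

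Uqcrc1, which with Uqcrc2 builds the matrix-side core, had 269 and 262 CPM in basal cells of the E15.5 controls, 520 and 623 at E16.5 and 221 at E17.5. In fibroblasts of the same libraries it had 117 and 121, then 269 and 266, and 131. It was lower in fibroblasts than in basal cells in each of the 5 controls, by -1.10 on the log2 scale (SE 0.15, adjusted p = 2.11e-05), and in macrophages by -1.24 (SE 0.15, adjusted p = 3.49e-06). Its partner Uqcrc2 fell in fibroblasts by 0.49 on the log2 scale (SE 0.09, adjusted p = 0.000369) and in macrophages by 0.58 (SE 0.10, adjusted p = 8.71e-05).

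The redox subunits were also lower in fibroblasts and macrophages. Cyc1, which hands electrons to cytochrome c, had 189 and 185 CPM in basal cells of the E15.5 controls, 272 and 258 at E16.5 and 165 at E17.5. Fibroblasts had 130 and 131, 190 and 182, and 116. The difference was -0.54 (log2, SE 0.11, adjusted p = 0.000696), and in macrophages it was -0.87 (SE 0.11, adjusted p = 7.05e-06). Each of these control libraries had less Cyc1 in fibroblasts than in basal cells. Uqcrfs1 was at -0.36 in fibroblasts (SE 0.10, adjusted p = 0.00897) and -0.31 in macrophages (SE 0.11, adjusted p = 0.0196), and mt-Cytb, the mitochondrially encoded subunit, at -0.44 in fibroblasts (SE 0.12, adjusted p = 0.00703). The median over all genes was -0.01 in fibroblasts and -0.28 in macrophages, so the macrophage value of Uqcrfs1 was near that of a typical gene. On leaving out 1 library that value ran from -0.29 to -0.16. The level of mt-Cytb is bounded by the limit of 10% on mitochondrially encoded UMIs per cell.

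The small subunits were less uniform. Uqcr11, a small subunit that stabilises the assembled complex, had 310 and 329 CPM in basal cells of the E15.5 controls, 234 and 482 at E16.5 and 238 at E17.5, against 351 and 392, 302 and 582, and 430 in suprabasal cells. Every control had more in suprabasal cells, by 0.48 on the log2 scale (SE 0.12, adjusted p = 0.00534), and less in fibroblasts, by -0.54 (SE 0.12, adjusted p = 0.0012). Uqcrb rose in suprabasal cells by 0.33 (SE 0.10, adjusted p = 0.0146), as did Cyc1 by 0.31 (SE 0.11, adjusted p = 0.0352) and Uqcrc2 by 0.29 (SE 0.09, adjusted p = 0.0234). Uqcrh, the acidic hinge protein at the docking site of cytochrome c, went the other way, with 692 and 681, 482 and 753, and 525 CPM in basal cells and 521 and 513, 350 and 568, and 479 in suprabasal cells. It fell by 0.28 on the log2 scale (SE 0.09, adjusted p = 0.0191), and in macrophages by 0.54 (SE 0.09, adjusted p = 5.68e-05). The median log2 difference over all genes was -0.145 in suprabasal cells and -0.277 in macrophages.

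Uqcrq itself, taken over the 5 controls, had 286 ± 107 CPM (mean ± SD, n = 5) in suprabasal cells, 256 ± 79.1 in macrophages, 243 ± 95.03 in basal cells and 201 ± 92.4 in fibroblasts. The SD spans stages and chemistries. Within each of the 5 libraries Uqcrq was higher in suprabasal and lower in fibroblast than in basal cells, yet by edgeR the differences from basal cells did not pass the threshold, at 0.34 (SE 0.15, adjusted p = 0.0831) in suprabasal cells, -0.34 (SE 0.15, adjusted p = 0.0659) in fibroblasts and 0.17 (SE 0.15, adjusted p = 0.358) in macrophages. DESeq2 called the suprabasal difference (0.41, adjusted p = 0.0257).

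In all, 4 of 10 members rose and 1 fell in suprabasal cells, where 15.1% of the 13541 genes tested were called higher and 22.9% lower. In fibroblasts 6 fell and none rose, with 23.5% of all genes called lower and 26.6% higher, and in macrophages 6 fell and none rose, with 35.5% lower and 23.6% higher. The macrophage calls were Uqcrc1, Cyc1, mt-Cytb, Uqcrc2, Uqcrh and Uqcrfs1. Control macrophage classes also held markers of other cells. At E16.5 their suprabasal markers summed to 260 to 21802.5 CPM, beside 16334.8 to 16488.5 of macrophage markers. At E15.5 their erythroid markers summed to 23337 to 61906 CPM, beside 11493 to 12645 of macrophage markers. At E17.5 they had 9858 CPM of fibroblast and 20089 of macrophage markers. Erythroid markers were not particular to macrophages. In E15.5 control basal cells they summed to 18497 to 21878 CPM, beside 13772 to 15931 of basal markers, and in fibroblasts to 19972 to 25450. In E16.5 control basal cells they summed to 4927 to 27176 CPM. The part of these markers in the differences between classes was not tested. The E17.5 control basal class carried 30920 CPM of the 7 fibroblast markers beside 12416 of the 7 basal markers. In its single-lineage cells Uqcrc1 had 306, Cyc1 215 and Uqcr11 319 CPM. With single-lineage cells in all controls 3 members were called in suprabasal cells (Uqcr11, Uqcrb and Uqcrh), 8 in fibroblasts and 7 in macrophages, and without the E17.5 control these counts were 6, 7 and 5, with Cyc1 not called in suprabasal cells. Without E15.5 Control replicate 2 the suprabasal count was 2 (Uqcr11 and Uqcrb), and without E15.5 Control replicate 3 it was 3 (with Uqcrc2 added). The shares of all genes called in these alternative fits are not at hand, so these counts are not read as results about the members. By DESeq2 the suprabasal count was 8, with 27.1% of all genes called. DESeq2 called 7 members in fibroblasts and 6 in macrophages, with 36.4% and 37.2% of all genes.

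Among partner genes, which were listed by function, all 12 other mitochondrially encoded mRNAs fell in fibroblasts alongside mt-Cytb, for example mt-Co3 by 0.31 and mt-Atp6 by 0.53 on the log2 scale. The 6 assembly factors of complex III were called in neither direction in fibroblasts, and in suprabasal cells 1 of them rose, Uqcc2 by 0.44 (adjusted p = 0.0121). The electron acceptor Cycs, cytochrome c, rose in suprabasal cells by 0.37 (adjusted p = 0.0276), while Hccs, which attaches its heme, fell by 0.44 (adjusted p = 0.0309). Of the 11 genes that feed electrons into the ubiquinone pool, 5 rose in suprabasal cells, among them the succinate dehydrogenase subunit Sdhb by 0.32 (adjusted p = 0.0103). Of the 13 genes of ubiquinone synthesis and binding, 1 rose in suprabasal cells, and in fibroblasts 1 rose and 4 fell.

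**Figure D2:**
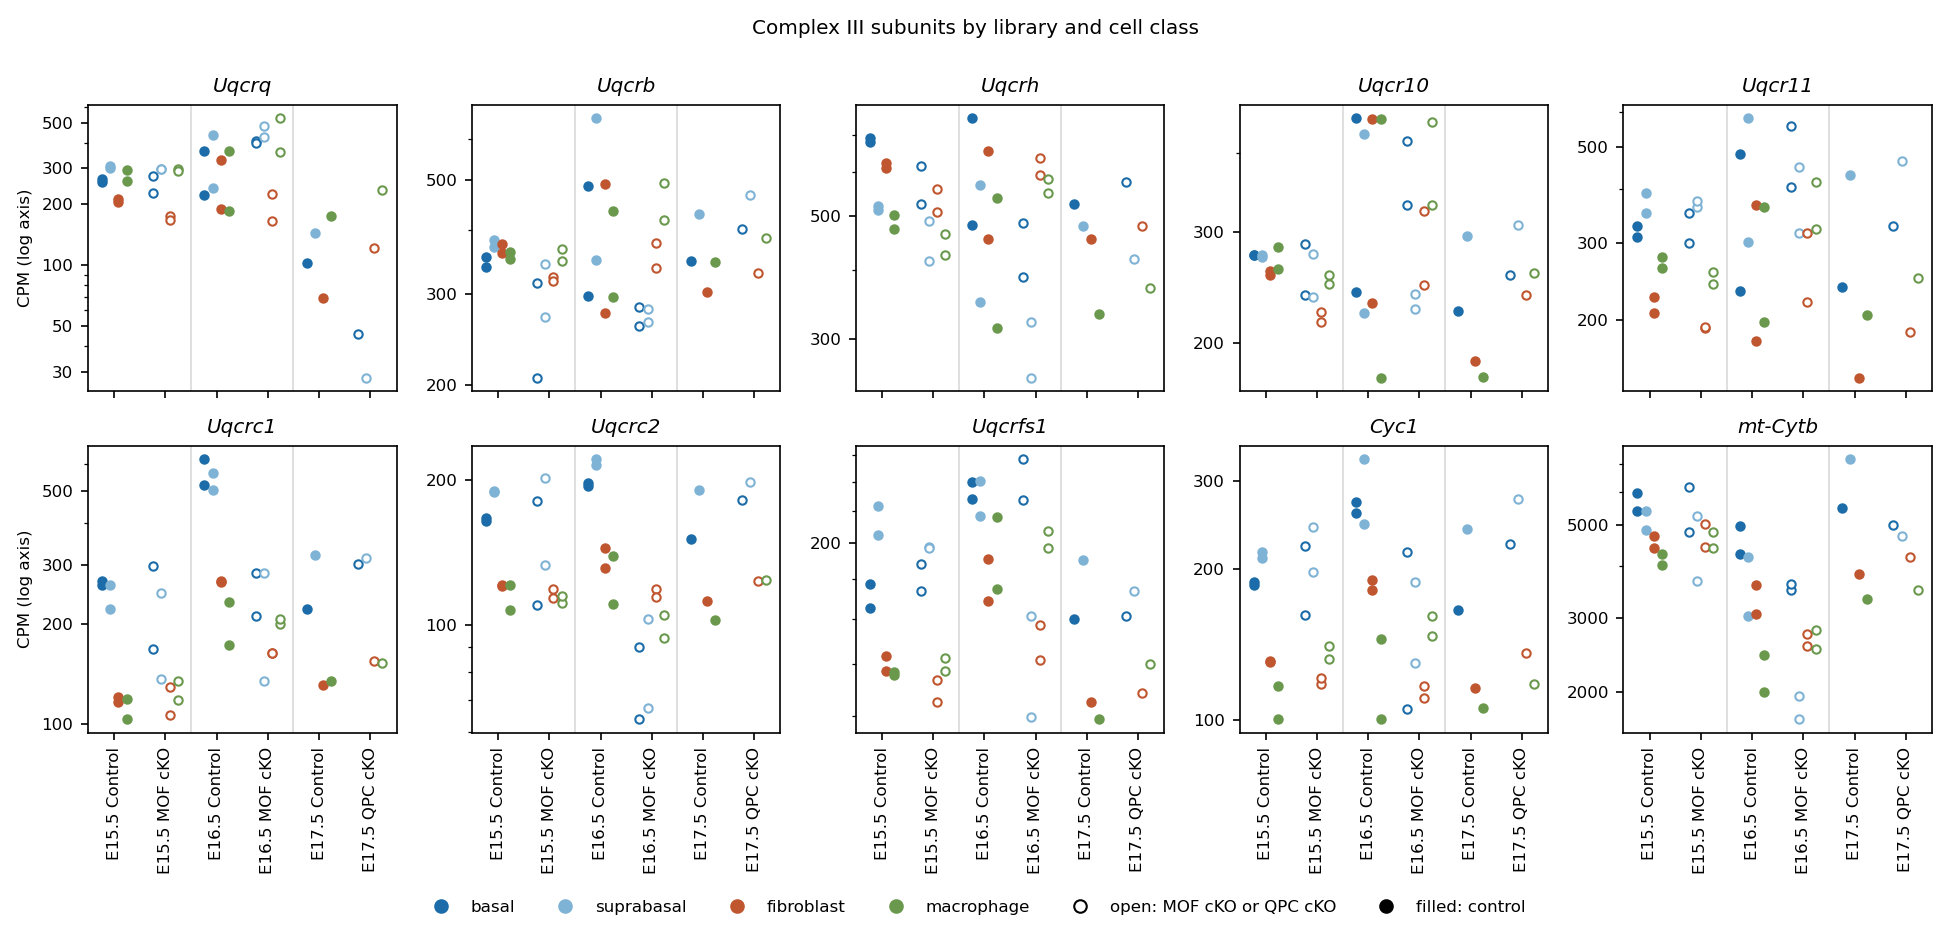
Level in CPM of each complex III subunit in every library, in the 4 cell classes, on a log axis; colours give the cell class, filled points controls and open points MOF cKO or QPC cKO, and stages stand side by side. The lowest points of Uqcrq are basal and suprabasal cells of the E17.5 QPC cKO library, at 45.7 and 27.8 CPM.

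Deletion of Uqcrq was the perturbation aimed at the complex. In the E17.5 epidermis Uqcrq, and no other nuclear member, was over 1.5-fold lower in QPC cKO, as were 16% of all genes in basal and 12.2% in suprabasal cells. Basal cells of the QPC cKO library had 2.23-fold less Uqcrq and suprabasal cells 5.05-fold less than those of the control, whereas its fibroblasts had 1.75-fold more, where 4.19% of all genes were over 1.5-fold higher. There was 1 library per group, so these ratios have no replicate check and no test, and the intervals given cover counting error only.

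Uqcrq, the ubiquinone-binding protein QP-C that joins cytochrome b early in assembly, had 103 CPM in control basal cells (6834 UMIs) and 45.7 in QPC cKO basal cells (1189 UMIs), a log2 ratio of -1.16 (exact 95% interval -1.26 to -1.09). In suprabasal cells it had 144 (720 UMIs) and 27.8 (58 UMIs), a log2 ratio of -2.34 (-2.79 to -1.99). In both classes the QPC cKO value was the lowest of the 10 libraries, and the E17.5 control value the next lowest. Of all genes with at least 10 UMIs in the pair, 7.12% had a lower ratio than Uqcrq in basal cells and 0.138% in suprabasal cells. In the dermis the order was the opposite. Control fibroblasts had 69.4 CPM and QPC cKO fibroblasts 122 (log2 ratio 0.81, 0.75 to 0.88), and macrophages 174 and 235 (0.43, 0.23 to 0.63). In single-lineage cells the log2 ratio was 0.80 in fibroblasts, and macrophages had 196 and 244 CPM (0.31, 0.07 to 0.57). The macrophage classes differed in fibroblast markers, with 9858 CPM in control and 2208 in QPC cKO, and in mast markers, with 1844 and 30.9. The part of these markers was not tested.

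Cells with a UMI of Uqcrq were counted as well. With each cell thinned to 5000 UMIs, Uqcrq was detected in 37.6% of control basal cells (Wilson 95% interval 35.8 to 39.4) and 17.1% of QPC cKO basal cells (14.9 to 19.5), against 84.0% and 40.5% before thinning. In suprabasal cells the thinned shares were 50.3% (43.0 to 57.5) and 10.0% (4.93 to 19.2). The neighbouring small subunit Uqcr10 was detected in 64.3% of control and 70.8% of QPC cKO basal cells after thinning. Col1a1, a fibroblast gene that keratinocytes should lack, was detected at the same depth in 71.1% of control and 35.9% of QPC cKO basal cells. In suprabasal cells it was detected in 40.8% and 28.6%. The Uqcrq share was above that of Col1a1 in control suprabasal cells and below it in control basal cells and in both QPC cKO classes. The shares of the latter 3 are therefore read neither as expression nor as a difference. The comparison is given in CPM, which sum UMIs of the same cells. Transcripts from other cells can enter the CPM too, and their part was not tested. Counts at the 3' end also include any transcript that lacks a deleted exon.

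Fibroblast transcripts were unequal between the E17.5 libraries. The summed fibroblast markers reached 30920 CPM in control basal cells and 5418 in QPC cKO basal cells, against 1899 to 1920 in the E15.5 and 2322 to 10141 in the E16.5 controls. In the E17.5 control basal class this sum was above that of the 7 basal markers, 12416 CPM. When cells with markers of another class were left out (1496 of 2807 control and 959 of 1066 QPC cKO basal cells stayed), Uqcrq was 131 and 36.8 CPM, 3.49-fold lower (log2 ratio -1.81, -1.94 to -1.73). The suprabasal values were then 144 and 27.5. Other markers were unequal as well. The 7 basal markers summed to 12416 CPM in control and 17405 in QPC cKO basal cells, and the 5 hair follicle markers to 1171 and 2508 in basal and 2749 and 4626 in suprabasal cells. The hair follicle list includes Krt17, which the study also describes as a mark of stressed cells in MOF cKO. Its sum is therefore not read as follicle cells. In the E17.5 suprabasal classes the basal markers (31164 and 25493) were slightly above the suprabasal ones (30178 and 25008), whereas they were below them in the earlier controls. The part of these in the ratios was not tested. Without cells that had markers of another class, the Uqcrq difference was thus larger in the basal class and about the same in the suprabasal class. With a mitochondrial limit of 5% it was smaller in the basal class, at a log2 ratio of -0.68.

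**Figure D3:**
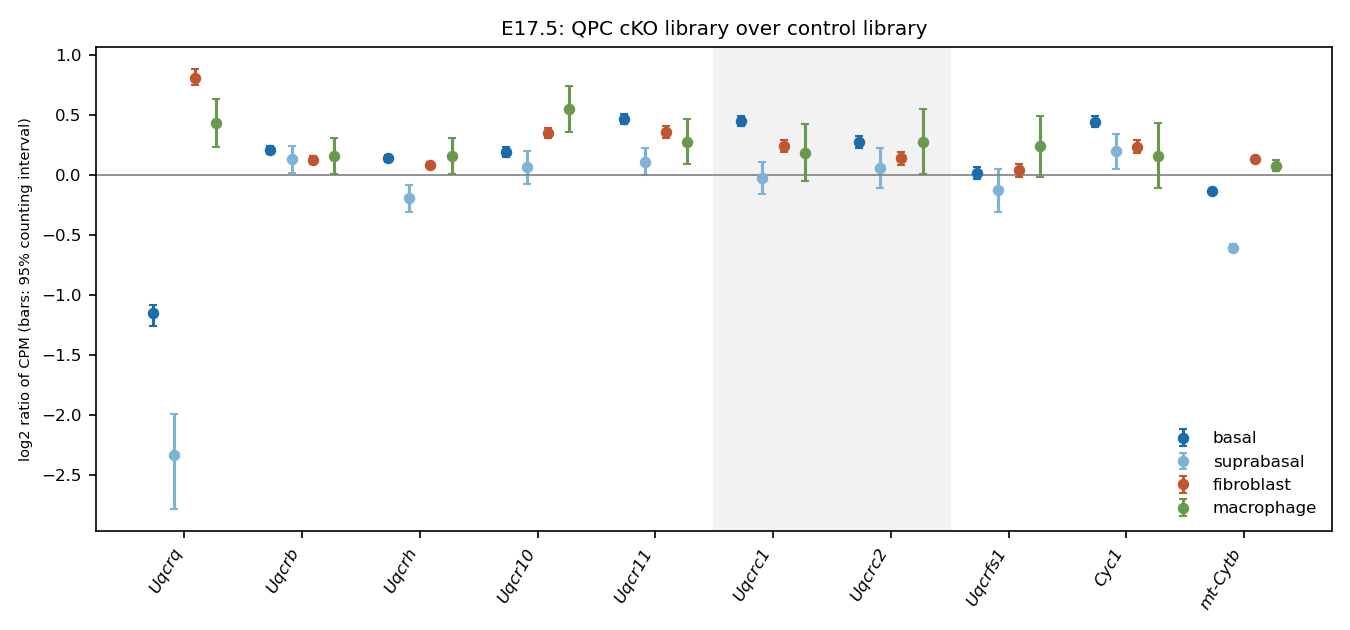
Log2 ratio of QPC cKO over control at E17.5 for each complex III subunit in the 4 cell classes, with exact 95% counting intervals and 1 library per group; the grey band marks the core subunits. Uqcrq is at -1.16 in basal and -2.34 in suprabasal cells and at 0.81 in fibroblasts, while the other nuclear subunits reach 0.46 in basal cells (Uqcr11) and 0.54 in macrophages (Uqcr10), where Uqcrq is at 0.43.

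The other 9 members had QPC cKO over control ratios of 0.911 to 1.38 in basal cells (median 1.15), 0.653 to 1.14 in suprabasal cells (median 1.04), 1.02 to 1.28 in fibroblasts (median 1.10) and 1.05 to 1.46 in macrophages (median 1.14). Past 1.5-fold were 1 member in basal cells (Uqcrq), 2 in suprabasal cells (Uqcrq and mt-Cytb), 1 in fibroblasts (Uqcrq) and none in macrophages. Among all genes the shares past 1.5-fold in either direction were 21.2%, 18.4%, 8.07% and 30%. Past 2-fold was 1 member in suprabasal cells (Uqcrq), with 6.01% of all genes, and none in fibroblasts, with 1.78%. At a mitochondrial limit of 5%, Uqcr11 and Uqcrc1 were past 1.5-fold higher in basal cells. At a limit of 20%, mt-Cytb was not past 1.5-fold in suprabasal cells. The shares of all genes at these limits are not at hand. With the single-lineage cells, the 8 other nuclear members in basal cells lay between 0.855, for Uqcrfs1, and 1.08. The nuclear partners of Uqcrq thus stood at most 1.17-fold from the control in these cells, by values from 1 library each.

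The mitochondrially encoded subunit differed from the nuclear ones. In suprabasal cells mt-Cytb reached 7202 CPM in control and 4705 in QPC cKO (log2 ratio -0.61, -0.65 to -0.58). In basal cells it had 5490 and 5000 (-0.14, -0.14 to -0.13), and in single-lineage basal cells 7084 and 5092 (-0.48, -0.49 to -0.47). The other 12 mitochondrially encoded mRNAs went both ways in suprabasal cells. Their log2 ratios ran from -0.43 to 0.68 with a median of 0.05, and mt-Co3 was at 0.10. Of the 12, 1 was over 1.5-fold higher and 0 were over 1.5-fold lower. In basal cells they ran from -0.03 to 0.68 with a median of 0.33. Their ratios in single-lineage basal cells are not at hand. As a share of all mRNA UMIs from the mitochondrial genome, mt-Cytb was 13.1% in control and 9.64% in QPC cKO basal cells, and 14.6% and 9.06% in suprabasal cells, while it was 12.1% and 12.05% in fibroblasts. In the 8 E15.5 and E16.5 libraries it was 9.86% to 12.3% in basal and 10.96% to 13.3% in suprabasal cells.

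Uqcrq was also low against its partners in the E17.5 control library. It made up 4.84% of the UMIs of the 9 nuclear members in control basal cells and 4.22% in control fibroblasts at E17.5, against 9.65% to 9.93% and 9.48% to 9.66% in the E15.5 controls and 8.17% to 9.53% and 8.93% to 10.8% in the E16.5 controls. In control macrophages at E17.5 the share was 10.3%, near the 9.94% to 13.7% of the earlier controls. In control suprabasal cells at E17.5 it was 5.31%, against 11.2% to 11.4% in the E15.5 and 8.55% to 11.3% in the E16.5 controls. In QPC cKO it was 1.85% in basal cells, 1.05% in suprabasal cells, 6.42% in fibroblasts and 11.6% in macrophages. Stage, chemistry, the unstated genotype of this control and the library itself cannot be told apart.

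Among partner genes at E17.5, the assembly factor Uqcc2 had 113 CPM in control and 188 in QPC cKO basal cells (log2 ratio 0.73), the only one of 6 assembly factors past 1.5-fold there. Coq10b, which binds ubiquinone, had 68.4 and 27.1 in basal cells (-1.30) and 110 and 45.3 in fibroblasts (-1.26), and was the only one of 13 ubiquinone genes past 1.5-fold lower in either class. Aff4, 1 of 4 listed neighbours of Uqcrq on chromosome 11, had 109 and 98.2 in basal cells (-0.15). Cycs was at 172 and 204. In basal cells 1 of 11 electron donors was past 1.5-fold in each direction, and 1 of 12 mitochondrially encoded mRNAs was higher. Of all genes, 21.2% in basal cells and 8.07% in fibroblasts were past 1.5-fold in either direction.

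The MOF cKO libraries bear on whether the nuclear genes of the respiratory chain depend on this acetyltransferase. The study compared populations of single cells and reported many electron transport chain genes lower in basal and suprabasal MOF cKO cells at E15.5. It reported many of these lower at E16.5 too, and a less open Uqcrc1 promoter. Sums per library are another unit, with 2 libraries per genotype and stage, so a lack of calls does not settle the question. Summed per library and class, no member of complex III passed an adjusted p of 0.05 by edgeR at either stage in basal, suprabasal or fibroblast cells, nor in both stages together, nor in macrophages. The fitted values of basal and suprabasal cells at E16.5 pointed both ways, with Uqcrq above 0 and the core subunits Uqcrc1 and Uqcrc2 below. Uqcr11 was above 0 in basal cells, while in suprabasal cells its sign turned from 0.25 to -0.25 with library sizes alone.

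**Figure D4:**
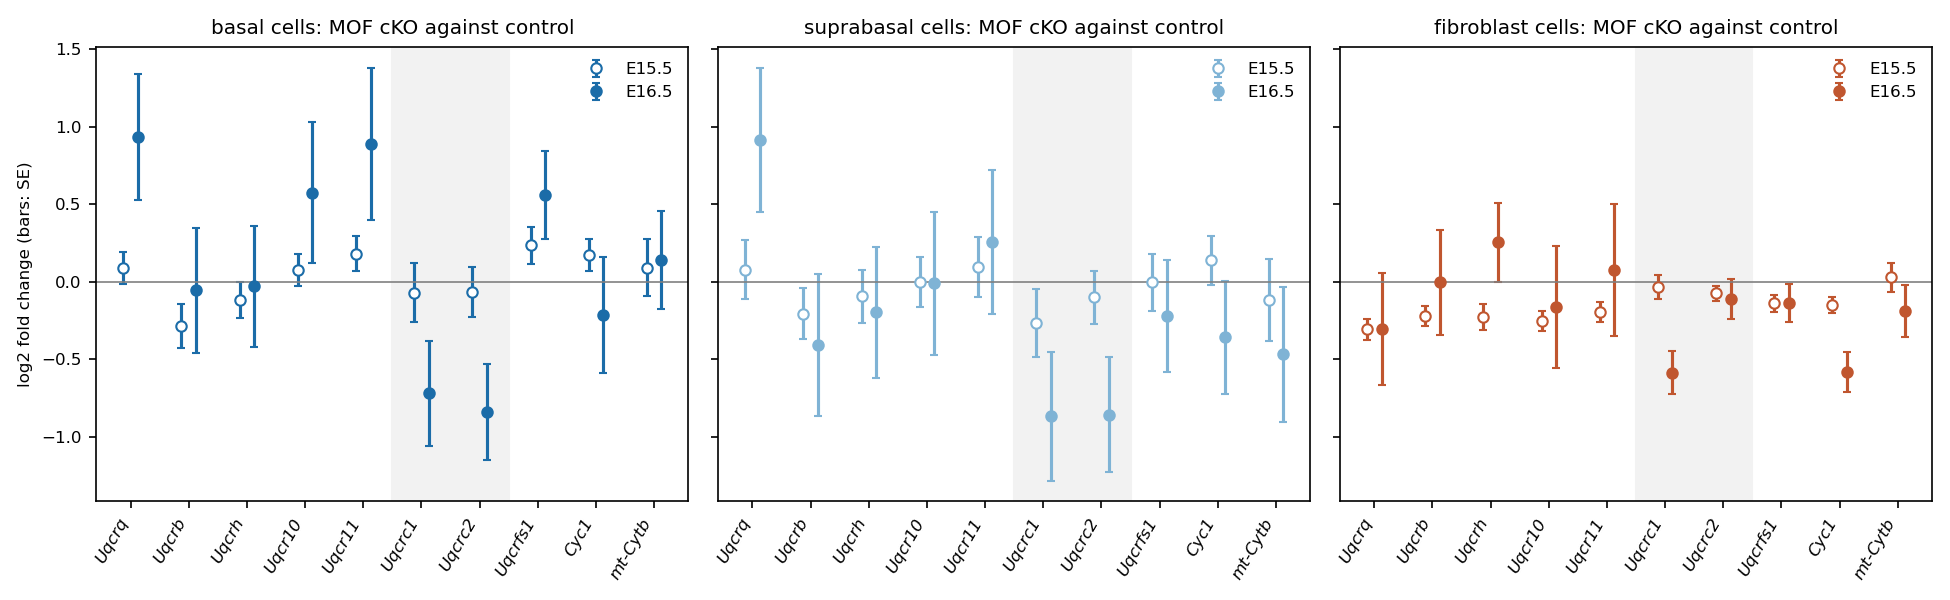
Log2 difference of MOF cKO from control for each complex III subunit, with standard errors, in basal, suprabasal and fibroblast cells at E15.5 (open symbols) and E16.5 (filled symbols), 2 libraries per genotype and stage; the grey band marks the core subunits. No point passed the threshold, and the E16.5 keratinocyte values spread farthest, from -0.87 for Uqcrc1 to 0.93 for Uqcrq.

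In basal cells at E15.5, Uqcrq had 258 and 266 CPM in controls 2 and 3 and 228 and 276 in MOF cKO 5 and 6, with a log2 difference of 0.09 (SE 0.10, adjusted p = 0.699). The MOF cKO values lay on both sides of the controls. The member with the largest difference was Uqcrb, a small subunit beside the ubiquinone site, with 338 and 354 against 206 and 316 (-0.29, SE 0.14, adjusted p = 0.508). Uqcrb and Uqcrh were below the controls in both MOF cKO libraries, where 32.9% of all genes tested were. No member had an unadjusted p under 0.05, against 9.11% of the 14364 genes, and 0% of genes were called by the adjusted p. DESeq2 called 0 members. The 7 basal markers summed to 13772 to 15931 CPM in controls and 6529 to 12506 in MOF cKO, and the 7 fibroblast markers to 1899 to 1920 and 2445 to 2831. The erythroid markers summed to 18497 to 21878 CPM in controls and 12695 to 33756 in MOF cKO. The part of these markers was not tested.

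The MOF cKO libraries differed from each other here. In CPM, MOF cKO 5 was lower than the mosaic MOF cKO 6 in all 10 members, for example with 168 and 298 CPM of Uqcrc1, 110 and 181 of Uqcrc2 and 4824 and 6169 of mt-Cytb. The gap was general, with a median log2 ratio of MOF cKO 6 over 5 of 0.32 over 12007 genes, and Uqcrq (0.27), Uqcrh, Uqcr10, Uqcr11 and Uqcrfs1 were below that median. Without MOF cKO 6, which left 1 MOF cKO library assumed to vary like the controls, 5 members were called in basal cells, as were 49.4% of all genes, the spread then coming from the 2 controls alone. Lower were Uqcrb (-0.46, adjusted p = 0.00219), Uqcrc1 (-0.36, adjusted p = 0.00336) and Uqcrc2 (-0.30, adjusted p = 0.00779), and fitted above the controls were Uqcr11 (0.21, adjusted p = 0.04) and Uqcrfs1 (0.32, adjusted p = 0.00746). In MOF cKO 5 the CPM of Uqcrb (206), Uqcrc1 (168) and Uqcrc2 (110) were below both controls as well. The directions of Uqcr11 and Uqcrfs1 hold only after TMM scaling. In MOF cKO 5 the CPM of Uqcr11 (301) was below both controls (310 and 329) and that of Uqcrfs1 (174) between them (177 and 165).

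In basal cells at E16.5 the spread was wider. Uqcrq had 221 and 367 CPM in controls 1 and 2 and 410 and 399 in MOF cKO 1 and 2 (0.93, SE 0.40, adjusted p = 0.258; 0.50 without Control 1 and 1.53 without Control 2), the only member above the controls in both MOF cKO libraries, where 10.6% of genes were. The groups overlapped when cells with under 0.5% mitochondrially encoded UMIs were left out (336 in MOF cKO 1 against 366 in Control 2) and in single-lineage cells (350 in MOF cKO 2 against 369). The core subunit Uqcrc2 had 197 and 194 in controls and 63.7 and 90.2 in MOF cKO (-0.84, SE 0.31, adjusted p = 0.212), and Uqcrc1 had 520 and 623 against 211 and 284. Along with Cyc1, mt-Cytb and Uqcrb they were below the controls in both MOF cKO libraries, 5 members where 51.5% of all genes were. Of the 9454 genes 0.243% were called, and 20.3% had an unadjusted p under 0.05, as did 1 member, Uqcrc2. DESeq2 called 0 members. MOF cKO values rest on 21 and 22 cells, of which 6 and 5 had under 0.5% mitochondrially encoded UMIs, against 6 of 239 and 5 of 464 in the controls. Other marker sums moved with the groups too. The 7 fibroblast markers, each detected in all 4 libraries, summed to 2322 to 10141 CPM in controls and 931 to 1419 in MOF cKO basal cells, and the 5 hair follicle markers to 1062 to 1197 and 2395 to 3788, with Shh and Lhx2 at 0 in MOF cKO. The hair follicle list includes Krt17, which the study describes as a mark of stressed cells in MOF cKO. Its sum is therefore not read as follicle cells. The erythroid markers summed to 4927 to 27176 CPM in controls and 2537 to 6463 in MOF cKO. The part of these markers in the differences was not tested. Scaling by library size alone moved the median of all genes from -0.11 to -0.64, and mt-Cytb from 0.14 to -0.38, while Uqcrq, Uqcr11, Uqcrc1 and Uqcrc2 kept their signs.

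In suprabasal cells at E16.5 the make-up of the class itself differed between genotypes. The 7 suprabasal markers summed to 72343 to 76263 CPM in controls and 24403 to 24575 in MOF cKO, the 7 basal markers to 13987 to 14203 and 25452 to 33042, and the 5 hair follicle markers, of which 2 to 4 were detected, to 1148 to 1506 and 4841 to 7325. The hair follicle sum again includes Krt17 and is not read as follicle cells. The part of these markers in the values that follow was not tested. Uqcrq had 239 and 438 CPM in controls and 483 and 428 in MOF cKO (0.91, SE 0.46, adjusted p = 0.263), so that the groups overlapped. Its log2 difference ran from 0.43 to 1.48 on leaving out 1 library. Uqcrc1 had 565 and 501 against 135 and 284 (-0.87), Uqcrc2 221 and 214 against 67.5 and 103 (-0.86), and mt-Cytb 4201 and 3042 against 1723 and 1960. Below the controls in both MOF cKO libraries were 7 members, with 49.6% of all genes. The called share was 4.03% of 4266 genes, and 25.9% of genes and no member had an unadjusted p under 0.05. In 8 of 9 and 8 of 13 of these MOF cKO cells mitochondrially encoded UMIs were under 0.5%, against 10 of 31 and 31 of 66 in the controls.

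At E15.5, suprabasal Uqcrq was 303 and 307 in controls and 298 and 299 in MOF cKO (0.08, SE 0.19, adjusted p = 0.905), and the largest difference was that of Uqcrc1, with 261 and 221 against 136 and 247 (-0.27, SE 0.22, adjusted p = 0.734). The fitted value of Uqcrq is above 0 although its CPM were slightly lower in MOF cKO. With library sizes alone, without TMM scaling, it was -0.03. In CPM, 4 members including Uqcrq were below the controls in both MOF cKO libraries, where 21.8% of all genes were. No gene was called by the adjusted p, and 7.73% of the 10819 genes and no member had an unadjusted p under 0.05. DESeq2 called 0 members in suprabasal cells at either stage.

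As a share of the nuclear members' UMIs, Uqcrq was 15.4% and 14.6% in basal cells of the E16.5 MOF cKO libraries and 24.0% and 17.53% in suprabasal cells, against 8.17% to 9.53% and 8.55% to 11.3% in the controls of that stage. At E15.5 it was 10.8% and 10.1% in MOF cKO basal cells and 9.65% to 9.93% in controls, and 13.2% and 11.19% against 11.18% to 11.39% in suprabasal cells. In fibroblasts it was 9.02% and 8.78% against 9.48% to 9.66% at E15.5 and 9.52% and 7.64% against 8.93% to 10.8% at E16.5. No test was run on these shares.

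Fibroblasts lie outside the driver. At E15.5 their Uqcrq was 205 and 212 CPM in controls and 175 and 167 in MOF cKO (-0.31, SE 0.07, adjusted p = 0.198), the largest difference of the 10. Below the controls in both MOF cKO libraries were 8 members, all but Uqcrc1 and mt-Cytb, where 20.4% of genes were. An unadjusted p under 0.05 was reached by 7 members and by 15.6% of the 16268 genes, and no gene was called by the adjusted p. DESeq2 called 2 members lower, Uqcrq (adjusted p = 0.00722) and Uqcr10, and 2.09% of all genes. In these E15.5 fibroblasts the 7 basal markers summed to 161 to 184 CPM in controls and 56.8 to 107 in MOF cKO. The 4 muscle markers summed to 17.3 to 24.0 and 33.7 to 38.0, and the part of these markers was not tested. At E16.5 Uqcrc1 had 269 and 266 in controls and 163 and 163 in MOF cKO (-0.59, SE 0.14, adjusted p = 0.0753), and Cyc1 190 and 182 against 111 and 117 (-0.58, SE 0.13, adjusted p = 0.0651). Both were below the controls in both MOF cKO libraries, as were 5 members in all and 35.8% of genes. Uqcrc1 and Cyc1 alone of the members had an unadjusted p under 0.05, with 25.2% of the 12569 genes and 4.64% called. Uqcrq was at -0.31 (SE 0.36, adjusted p = 0.645), with -0.75 without Control 1 and 0.27 without Control 2. DESeq2 called Cyc1 and Uqcrc1, and 5.03% of all genes, and edgeR called both with library sizes alone or without the filter on low counts. Markers of other cells in these E16.5 fibroblasts were apart too, at 344 to 566 CPM in controls and 155 to 196 in MOF cKO for the 7 basal markers, 327 to 420 and 107 to 115 for the 7 suprabasal, 15.3 to 24.7 and 43.2 to 194 for the 7 macrophage and 9.96 to 17.4 and 34.5 to 54.3 for the 4 muscle markers. Their part was not tested.

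With both stages in 1 fit, 4 libraries per genotype, no member was called in any class. In basal cells Uqcrq was at 0.46 (SE 0.25, adjusted p = 0.393) and the largest difference was that of Uqcr11 (0.49, SE 0.29, adjusted p = 0.421), with 0% of 12582 genes called. On leaving out 1 library Uqcrq ran from 0.21 to 0.63 and Uqcr11 from 0.21 to 0.75. In suprabasal cells Uqcrq was at 0.46 (SE 0.29, adjusted p = 0.506) and Uqcrc1 at -0.56 (SE 0.26, adjusted p = 0.388), with 0.128% of genes called. In fibroblasts Uqcrq was at -0.31 (SE 0.20, adjusted p = 0.388) and Cyc1 at -0.37 (SE 0.10, adjusted p = 0.123), with 0% called by edgeR and 2 members, Cyc1 and Uqcrfs1, by DESeq2, which called 7.43% of all genes. In macrophages Uqcrq was highest, at 0.38 (SE 0.24, adjusted p = 0.527), with 1.25% of 9812 genes called. Macrophage markers there summed to 11493 to 12645 CPM in controls and 9305 to 9815 in MOF cKO at E15.5. At E16.5 they summed to 16335 to 16489 and 8084 to 8639. Fibroblast markers overlapped at E15.5, at 1641 to 3038 and 2581 to 2992, and were 1351 to 2476 and 4395 to 10539 at E16.5. The part of these markers was not tested. With 1 library left out Uqcrq ran from 0.20 to 0.63 in suprabasal cells, -0.48 to -0.09 in fibroblasts and 0.14 to 0.52 in macrophages. Members with an unadjusted p under 0.05 numbered 1, 0, 3 and 0 in these classes, beside 14.9%, 13%, 22.7% and 14.3% of all genes, and DESeq2 called 0 members in the basal, suprabasal and macrophage fits.

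The differences between effects were tested as well. Between E16.5 and E15.5 in basal cells, the MOF effect on Uqcrq differed by 0.77 (SE 0.45, adjusted p = 0.52) and that on Uqcrc2 by -0.83 (SE 0.34, adjusted p = 0.412). On leaving out 1 library these ran from 0.32 to 1.55 and from -1.07 to -0.52. No member was called, 1 had an unadjusted p under 0.05 beside 11.5% of all genes, 0.0152% of genes were called and DESeq2 called 0 members. Between basal cells and fibroblasts the effect on Uqcrq differed by 0.85 (SE 0.21, adjusted p = 0.192). No gene was called by edgeR, 4 members had an unadjusted p under 0.05 beside 15.1% of all genes, and DESeq2 called those 4, Uqcrq (adjusted p = 0.0129), Uqcr11, Uqcr10 and Uqcrfs1, each with a higher difference in basal cells, and 1.8% of all genes.

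Partner genes were called no more than the members. None of the 6 lists (assembly factors, cytochrome c, ubiquinone synthesis, electron donors, neighbours of Uqcrq and mitochondrially encoded mRNAs) had a call in any of the 10 MOF comparisons. In basal cells the ubiquinone genes had a median log2 difference of -0.51 at E15.5 and -0.92 at E16.5, and the electron donors -0.11 and -0.68, beside medians of -0.01 and -0.11 over all genes. Coq10b was at -0.51 (SE 0.12, adjusted p = 0.508) at E15.5 and Etfb, which passes electrons from fatty acid oxidation, at -1.496 (SE 0.35, adjusted p = 0.135) at E16.5. Cycs was at 0.33 and 1.17, above 0 at both stages.

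**Figure D5:**
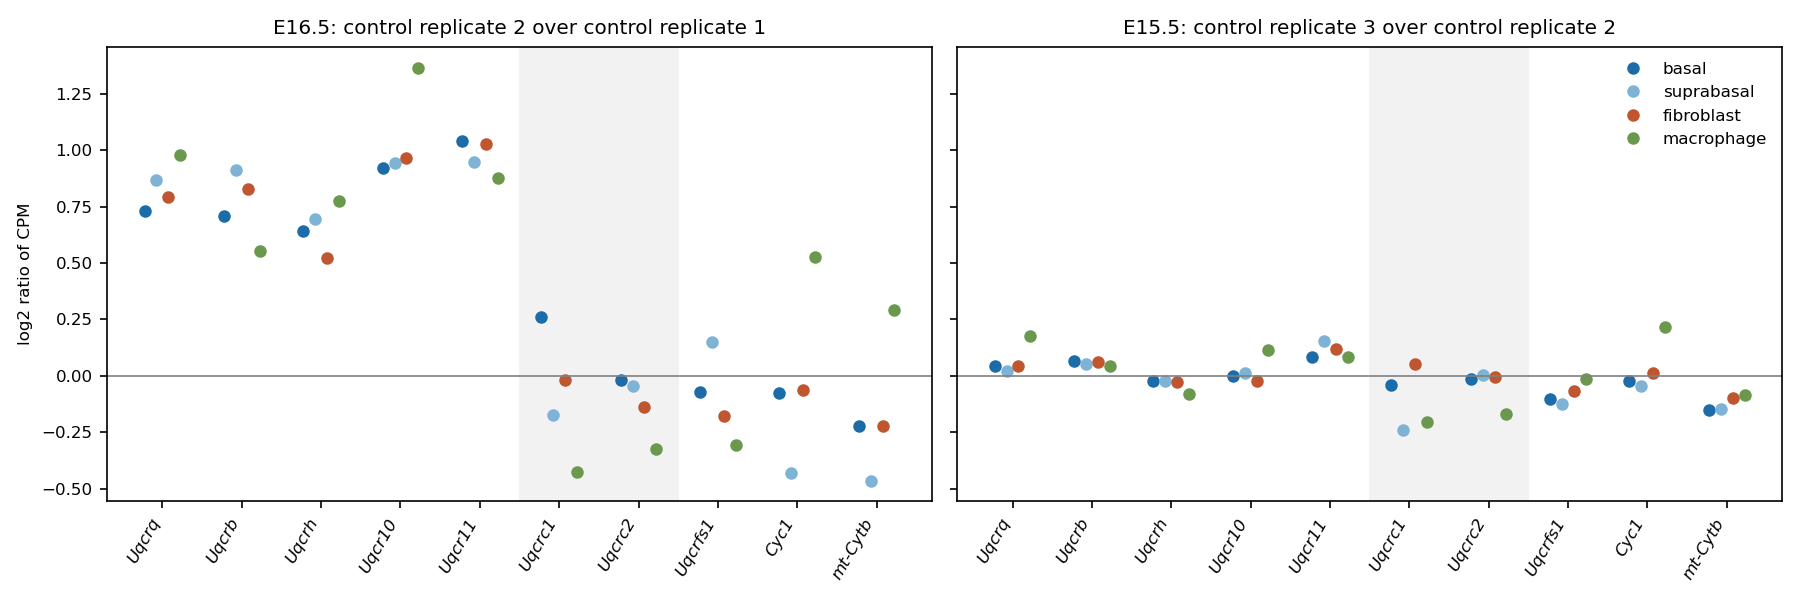
Log2 ratio of CPM between controls of a stage for each complex III subunit in the 4 cell classes, Control 2 over Control 1 at E16.5 on the left and Control 3 over Control 2 at E15.5 on the right; the grey band marks the core subunits. The 5 small subunits are above 0 in every class at E16.5, by ratios of 1.44 to 2.58, and the E15.5 pair lies near 0.

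Controls of the same stage were not always alike. At E16.5 all 5 small subunits were higher in Control 2 than in Control 1, with ratios of 1.56 to 2.06 in basal cells, 1.62 to 1.93 in suprabasal cells, 1.44 to 2.04 in fibroblasts and 1.47 to 2.58 in macrophages. The 4 larger nuclear subunits, Uqcrc1, Uqcrc2, Uqcrfs1 and Cyc1, had ratios of 0.95 to 1.20, 0.742 to 1.11, 0.883 to 0.987 and 0.744 to 1.44. Of 9604 genes in basal cells 3.25% had a ratio at or above that of Uqcrq. The E15.5 controls had ratios of 0.984 to 1.06 for the small and 0.931 to 0.989 for the larger subunits in basal cells. The gap between the E16.5 controls was thus seen for the small subunits in every class, in 1 pair of libraries. Erythroid markers differed between these controls too. The lower and the higher sum were 4927 and 27176 CPM in basal cells and 7319 and 22279 in fibroblasts. Their part in the gap was not tested. For Cyc1 in basal cells the wider gap lay between the MOF cKO libraries of that stage.

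By likeness of pattern, the genes outside the complex nearest to Uqcrq were Sem1, Cox6b1, Atox1, Cox5a and Atp5l among 2755 genes, with Pearson r of 0.862, 0.856, 0.814, 0.801 and 0.792 over 34 class sums of the control and MOF cKO libraries, centred within stage. Among the members, Uqcr11 was nearest at 0.808, above Cox5a and Atp5l, and Uqcr10 next at 0.719. Then came Uqcrb at 0.452, Uqcrfs1 at 0.393, Cyc1 at 0.265, Uqcrc1 at 0.199 and mt-Cytb at 0.06. Uqcrh, a small subunit too, was at 0.02 and Uqcrc2 at -0.05. Sums from the same library share its depth and its gap between small and large subunits, so these are descriptions.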

How the data were processed

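The deposited values are counts: the UMIs of each gene in each cell barcode, not normalized. Per the labels, the authors ran Cell Ranger (6.1.2, with 1.3.1 also listed for the E16.5 and E17.5 libraries) against mm10, and barcodes were those of called cells. The E16.5 tables list 27998 genes and the others 32285. Here, cells were filtered by the limits of the study's methods, assigned to 4 classes by UMI counts, and summed per library and class, so that libraries were the replicates. Replicates are separate libraries by their labels, and p-values measure the spread between them. Tests were edgeR 4.0.16 (quasi-likelihood, filterByExpr, TMM) with Benjamini-Hochberg adjustment over all genes of a fit and a threshold of 0.05, checked on simulated counts; DESeq2 1.42.0 was an alternative. Fits over stages used the 27040 genes listed in both annotations. At E17.5, with 1 library per group, ratios of CPM (pseudocount 1) carry exact conditional 95% intervals and no test. Shares of cells were taken after thinning to 5000 UMIs. Alternatives covered scaling, filters, class and mitochondrial limits, doublet-like cells, the replicate block and leaving out each library. Full statistics are given for Uqcrq, called members and the member with the largest difference, others by range; of each partner list, the 2 genes with the highest mean were eligible by name. Other named partner genes were chosen after their values were seen. Promoter motifs were searched on both strands. The members, lists and tests were chosen with earlier results of these data known. Software was R 4.3.3, limma 3.58.1 and Python 3.11.15.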

Additional observations from a re-analysis of the deposited data

Results flagged for a closer look

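At E17.5 the QPC cKO over control ratios of Uqcrq, Uqcrh and mt-Cytb had opposite signs in at least 1 epidermal class and the dermal classes, with counting intervals apart from 0. In suprabasal cells Uqcrc1 (-0.02) and Uqcrfs1 (-0.13) were below 0 and in the dermal classes above, with suprabasal intervals that include 0. There was 1 library per group, so none of these differences between cell classes was tested. The log2 ratio of Uqcrq was 0.806 in fibroblasts and 0.428 in macrophages, against -1.16 in basal and -2.34 in suprabasal cells. That of Uqcrh was 0.0805 in fibroblasts and 0.154 in macrophages, against -0.198 in suprabasal cells, while in basal cells it was 0.14, and -0.03 in basal cells without markers of another class. There Uqcrfs1 was at -0.23. That of mt-Cytb was 0.127 in fibroblasts and 0.0744 in macrophages, against -0.135 in basal and -0.614 in suprabasal cells. All other libraries had more Uqcrq in fibroblasts than the E17.5 control, whose 69.4 CPM were the lowest of the 10.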

How the results depend on the processing

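Counts of called members by edgeR that moved by over 1.5 times were few. In basal cells at E15.5 (0 called), leaving out libraries gave 0 to 5, with 5 without MOF cKO 6, where 49.4% of all genes were called. In basal cells at E16.5 (0) the count was 1 with class limits on scaled UMIs (Uqcrc2) and 0 to 1 on leaving out libraries (Uqcr11, without Control 2). In fibroblasts at E15.5 DESeq2 called 2, and at E16.5 2 members were called by DESeq2, with library sizes alone and without the filter on low counts. In fibroblasts of both stages DESeq2 called 2, and in the difference between basal cells and fibroblasts it called 4, while leaving out libraries gave 0 to 2 there, with 2 (Uqcr11 and Uqcrq) without E15.5 MOF cKO 6. For suprabasal against basal cells in controls (5), DESeq2 gave 8, and 3 were called with no filter, with scaled limits and with single-lineage cells. Leaving out libraries gave 2 to 6, with 2 without E15.5 Control 2 and 3 without E15.5 Control 3. Other than where given, the shares of all genes in these alternative fits are not at hand, so the counts are not read as results about the members.

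The sign of Uqcrq turned with library sizes alone in basal (-0.057) and suprabasal cells (-0.031) at E15.5. On leaving out libraries it ran from -0.094 (without MOF cKO 5) to 0.22 (without MOF cKO 6) in suprabasal cells at E15.5 and from -0.75 (without Control 1) to 0.27 (without Control 2) in fibroblasts at E16.5. Its E17.5 log2 ratio in basal cells was -1.02 with a pseudocount of 10, -0.68 with a mitochondrial limit of 5%, -1.94 with doubled and -1.95 with scaled class limits and -1.81 with single-lineage cells. In fibroblasts it was 0.73 with a pseudocount of 10, and in macrophages 0.20 with no upper gene limit, an alternative chosen after seeing the data. Members past the fold numbered 1 in suprabasal cells (Uqcrq, without mt-Cytb) at 2-fold, at a mitochondrial limit of 20%, with doubled limits and with keratin and mitochondrial genes left out. They numbered 0 in fibroblasts at 2-fold and 3 in basal cells at a limit of 5% (Uqcrq lower, Uqcr11 and Uqcrc1 higher). In macrophages with doubled limits 1 was past it (Uqcr10, higher). Other than where a value or the alternative's own construction shows it, the cause was not tested.

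At E16.5 the replicate numbers are shared by control and MOF cKO, but the labels do not say what they mark, and deviations of same-numbered libraries correlated at -0.26, -0.01 and -0.23 in basal, suprabasal and fibroblast cells. With the replicate block 0 members were called in each class, as without it. With the numbers crossed, chosen after seeing the data, 0 members were called too. No paired analysis was possible at the other stages because their groups share no numbers or hold 1 library each.

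The keratinocyte classes of the E16.5 MOF cKO libraries held the fewest cells, 9 to 22 a class. The filters took many E17.5 suprabasal barcodes, leaving 190 of 528 in the control and 72 of 417 in QPC cKO. Of the E17.5 basal barcodes they left 2807 of 4502 in the control and 1066 of 2894 in QPC cKO. Basal barcodes over the mitochondrial limit numbered 508 and 553, those with too few genes 133 and 439, and those with too many 1104 and 857. The part of this loss in the E17.5 ratios was not tested.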
